A study of Mus musculus with 9 samples.

Results

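The Magi scaffolds and the catenins are 9 mouse genes of cell-cell junctions: Magi1, Magi2, Magi3, Ctnnd1, Ctnnd2, Ctnna1, Ctnna2, Ctnna3 and Ctnnb1. For each gene, peaks of SAFB-associated RNA were taken whose midpoint lay in the annotated gene body on the transcribed strand (sense peaks). The 9 genes, of 55450 annotated, held 118 sense peaks, 0.381% of the deposited list, and 5 of the 9 held at least 1. They were chosen by family with the peaks of this same list already known, so counts and positions are a description and were not tested. All protein-coding genes serve as the background.

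The peaks came from RNA immunoprecipitation and sequencing in mouse embryonic stem cells of a male line made from the CAST and B6 strains with a Rosa26-RMCE locus, and every culture had received doxycycline for 3 days. The 9 libraries comprised SAFB1 antibody in wild-type cells (3, the parent line and single clones), IgG in wild-type cells (2, the parent line and 1 clone) and the same SAFB1 antibody in 2 clones that lack both SAFB1 and SAFB2. The other two used FLAG antibody in 1 of these clones, carrying either an eGFP plasmid (1) or one for full-length SAFB1 (1). The genotype field of the SAFB1 plasmid library reads wild type although its title names that clone, so the library was grouped by title. Only 1 peak list covers the series and it holds no value per library, so antibodies and genotypes were not compared, no result has replicates and library depth is unknown. Of 8 pluripotency markers, Esrrb held 2 sense peaks and Zfp42 and Tfcp2l1 1 each, while Pou5f1, Nanog, Sox2, Klf4 and Dppa5a held none. A peak list does not measure expression, so the cell type label could not be checked.

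At adherens junctions, cadherins span the membrane and catenins bind their cytoplasmic tails. Beta-catenin (Ctnnb1) holds alpha-catenins to the cadherin, alpha-catenins reach the actin cytoskeleton, and delta-catenins (Ctnnd1, also called p120-catenin, and Ctnnd2) keep the cadherin at the surface. Beta-catenin also acts in the nucleus with TCF and LEF factors in Wnt signalling, which supports stem cell self-renewal. Magi proteins are scaffolds of the guanylate kinase family with PDZ and WW domains that gather junction and synapse proteins. SAFB1 is a nuclear RNA-binding protein, so its peaks can lie in unspliced as well as spliced RNA.

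Magi2 was the gene of the set with most exonic peaks, and its coding exons under narrow peaks are shown because sequence played no part in choosing the genes. The following are the coding bases of exons 4, 5 and 6 that lay under a peak, numbered along transcript ENSMUST00000197443.4 and read from the GENCODE M21 transcript (mm10, plus strand, chr5:20195021-20195231, chr5:20215319-20215529 and chr5:20228372-20228451). Capitals mark purine hexamers, searched on the RNA strand only. The hexamer AGAAGA was searched together with its shifted forms, which are GAAGAA and, a base further along the repeat, AAGAAG, so that matches overlap.
Magi2 exon 4: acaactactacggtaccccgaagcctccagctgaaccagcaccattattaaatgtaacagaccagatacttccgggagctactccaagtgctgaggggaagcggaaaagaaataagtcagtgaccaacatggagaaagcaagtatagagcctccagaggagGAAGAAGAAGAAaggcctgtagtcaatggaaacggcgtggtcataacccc
Magi2 exon 5: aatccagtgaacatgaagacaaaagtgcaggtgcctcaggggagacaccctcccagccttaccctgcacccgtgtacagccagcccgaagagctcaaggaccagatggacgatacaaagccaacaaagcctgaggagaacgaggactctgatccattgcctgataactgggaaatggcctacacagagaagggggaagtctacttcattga
Magi2 exon 6: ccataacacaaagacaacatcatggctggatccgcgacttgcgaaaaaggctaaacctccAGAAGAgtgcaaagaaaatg
Exon 4 held 7 overlapping matches in 1 GAA repeat, exon 6 held 1 match and exon 5 none. Across the coding sequence of 21866 protein-coding transcripts, 33.7% of windows of 211 bases and 14.9% of windows of 80 bases held at least 1 such hexamer. A and G made up 61.6% of the printed bases of exon 4, 58.3% of exon 5 and 62.5% of exon 6.

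Sense peaks fell very unevenly among these genes. Ctnnd2 held 48 and Magi2 43, together 77.1% of the 118. Magi1 held 15, Ctnna2 7 and Magi3 5, and Ctnnd1, Ctnna1, Ctnna3 and Ctnnb1 held none. Among all protein-coding genes 26.2% held at least 1 sense peak. The share was higher in longer genes, from 6.05% below 10 kb and 21.3% from 10 to 30 kb to 42.4% of genes from 30 to 100 kb, 68.1% from 100 to 300 kb and 68.6% above 300 kb. The 5 genes with peaks are 207 kb or longer, while Ctnnb1 spans 31.3 kb, Ctnnd1 50.7 kb and Ctnna1 136 kb. Ctnna3 is the exception to that order of lengths within the set, a gene of 1574 kb with no sense peak. Ctnna1 lacked a peak too, although 68.1% of genes from 100 to 300 kb held at least 1. In bulk libraries, fewer cells with a transcript and less of it per cell cannot be told apart.

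**Figure D1:**
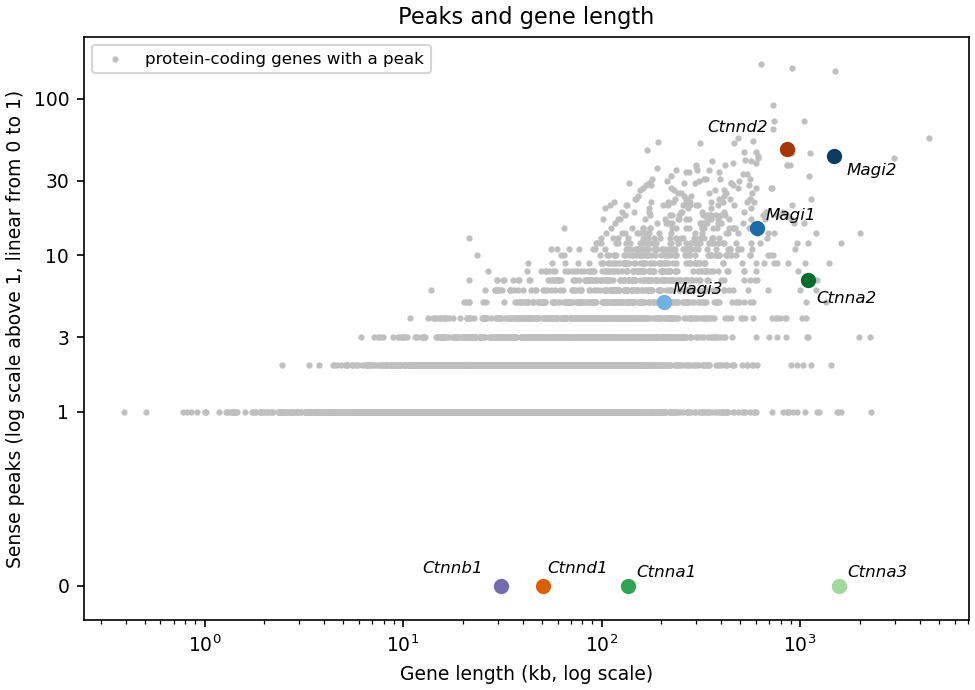
Sense peaks (vertical axis, count, logarithmic above 1) against gene length (horizontal axis, kb, logarithmic) for the protein-coding genes with a peak (grey) and the 9 junction genes (coloured and named). Ctnnd2 (48) and Magi2 (43) lie among the genes with most peaks, and Ctnna3 lies at 0 although it spans 1574 kb.

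Magi2 (ENSMUSG00000040003.18, chromosome 5, 19227036 to 20704792, mm10, plus strand) encodes a scaffold of synapses and of the kidney slit diaphragm. Its 43 sense peaks covered 22.6 kb, or 1.53% of the gene, at 29.1 peaks per Mb. That density ranked 123 of 567 protein-coding genes above 300 kb, whose median was 7.49 per Mb. No peak lay in the first 549 kb, which hold intron 1, the longest intron at 451 kb. Most peaks lay after an internal start of transcription in the annotation. From 19907518, 681 kb into the gene, a shorter coding transcript begins, and 41 of the 43 peaks lay after that point and 2 before it. The densities were 51.4 per Mb after and 2.94 per Mb before. Other internal coding starts lie further in. Around that at 20228186, 22 peaks lay before (22.0 per Mb) and 21 after (44.1 per Mb). The starts at 20534338 and 20602497 had 36 and 39 peaks before them. Below, the internal start of Magi2 means 19907518.

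The Magi2 peak at 19907753 to 19908035, had 92.2% of its 283 bases in first exons of the shorter transcripts. RefSeq lists a start at the same base, 19907518. The 250 bases before the start at the gene's 5' end and before the internal start are shown next, since the peaks lay almost wholly after the latter. They come from RefSeq on GRCm38.p6, the plus strand of chr5:19226796-19227045 and chr5:19907268-19907517, and capitals mark each CG dinucleotide.
Magi2 first start: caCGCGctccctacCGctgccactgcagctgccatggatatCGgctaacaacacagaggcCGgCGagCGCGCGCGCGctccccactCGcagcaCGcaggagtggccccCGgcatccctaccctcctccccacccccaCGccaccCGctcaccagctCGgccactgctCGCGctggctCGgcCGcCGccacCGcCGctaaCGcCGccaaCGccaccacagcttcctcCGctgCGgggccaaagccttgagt
Magi2 internal start: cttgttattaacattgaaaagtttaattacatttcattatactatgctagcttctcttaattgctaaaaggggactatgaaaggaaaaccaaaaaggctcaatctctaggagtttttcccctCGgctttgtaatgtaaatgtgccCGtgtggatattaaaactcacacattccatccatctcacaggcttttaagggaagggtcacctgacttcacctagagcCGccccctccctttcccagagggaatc
The first start had 29 CG dinucleotides in 250 bases and a GC content of 72.0%, while the internal start had 3 and 41.2%. At least 29 were found in 6.78% of 32851 promoters of the same length, and at least 3 in 71.0%. CG reads the same on both strands, so 1 search covers both.

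The numbers in the peak names add a readout beyond the kept peaks. It is not independent of the choice of genes, because every kept peak has a number too. Numbers rise along each chromosome and strand. If each number stands for 1 call of the authors' peak finding, missing numbers are calls that the final list left out. Between the first peak of Magi2 and the peak at the internal start, 131 kb apart, 2 numbers lay, or 15.2 per Mb, and 1 of them was kept. From the peak at the internal start to the last peak, 151 numbers lay in 795 kb, or 190 per Mb, and 39 of them were kept. The stretch from the nearest plus-strand peak upstream of the gene to the peak at the internal start spanned 2660 kb and held 29 numbers, or 10.9 per Mb. Of that span 1979 kb lay before the gene, so its density is not that of the gene. Calls were thus sparse, whether kept or not, in the 131 kb up to the peak at the internal start. Further upstream in the gene their density is unknown.

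Introns held 37 of the 43 Magi2 peaks. They lay in introns 2, 3, 6, 7, 9, 12, 13, 15 and 20 of the longest coding transcript, with the largest numbers in intron 2 (16 with the peak on the alternative first exon, 387 kb) and intron 6 (7, 131 kb). Introns 1 and 10 (62.1 kb) held none. Intronic peaks lay a median of 15.3 kb from the nearest exon of any transcript, and 63.5 kb at most. The 6 exonic peaks comprised the alternative first exon, coding exons 4, 5, 6 and 10, and the last exon. Of 992 protein-coding genes with at least 5 sense peaks, 46.3% held an exonic peak and 1.41% held 6 or more.

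Exons 4, 5 and 6 of Magi2 lay almost wholly under narrow peaks. The peak on exon 6 was 155 bases wide and held the whole exon of 80 bases. On exon 5 a peak of 280 bases held the whole exon of 211, and on exon 4 a peak of 243 bases held 211 of the exon's 213. On exon 10, the longest coding exon with 639 bases, the peak of 506 bases lay wholly inside. By purine content these exons ranked 4 (exon 4), 7 (exon 5), 3 (exon 6) and 16 (exon 10) of 21 coding exons. Over all 4 the content was 53.9%, against 53.9% in the 16 coding exons without a peak. Exon 20, with the highest content (66.2%) and 3 hexamer matches, held no peak.

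**Figure D2:**
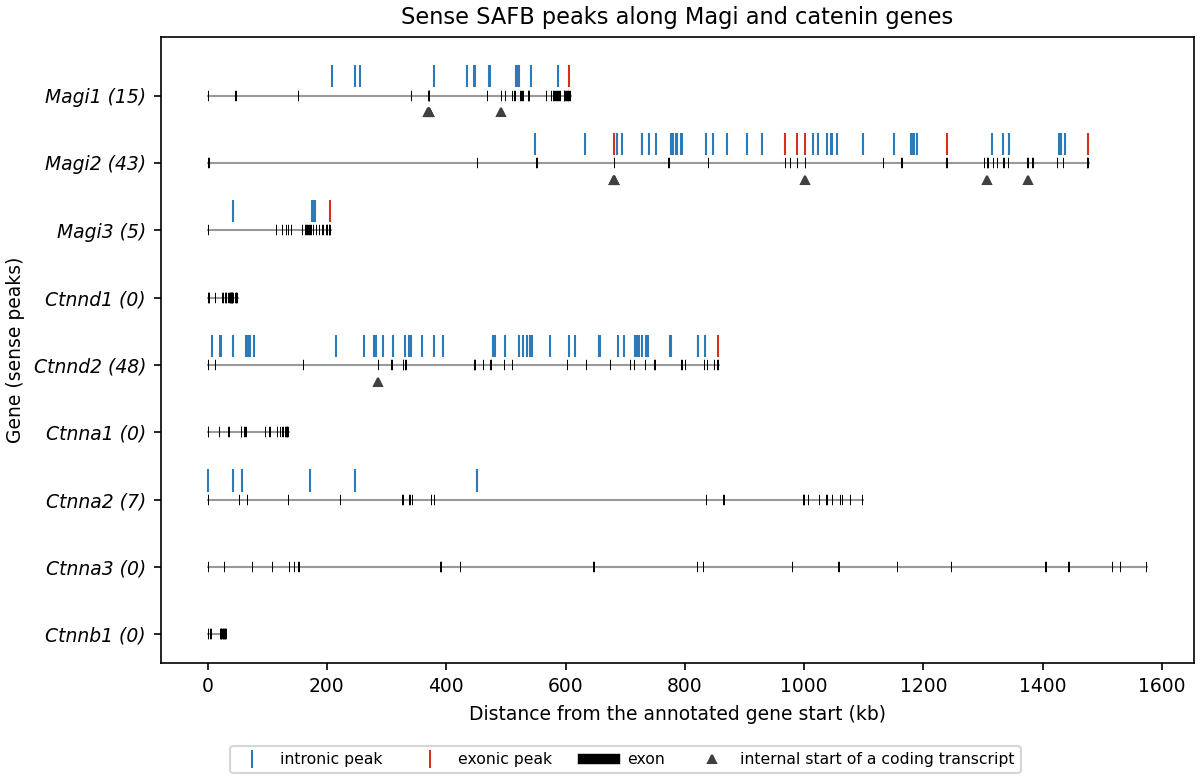
Maps of the 9 genes, with the distance from the annotated gene start in kb on the horizontal axis and 1 gene per row (number of sense peaks in brackets). Blue ticks are intronic and red ticks exonic peaks, black bars are exons of any transcript, and triangles are internal starts of coding transcripts more than 10 kb into the gene. Magi2 peaks begin 549 kb into the gene, those of Ctnna2 stop 41.2% into it, and Ctnnd2 peaks span the gene.

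Magi1 (ENSMUSG00000045095.16, chromosome 6, 93675455 to 94283917, minus strand), a scaffold of epithelial tight junctions, held 15 sense peaks at 24.7 per Mb, rank 154 of 567 in its length class. As in Magi2, most of its peaks lay after the outermost internal start. Around the innermost, at 93792539, 9 peaks lay before (18.3 per Mb) and 6 after (51.2 per Mb). The outermost such start lies at 93913690, 370 kb into the gene, with 12 peaks after it (50.4 per Mb) and 3 before it (8.10 per Mb), all 3 in intron 1 (340 kb). Numbered calls, inside the outermost peaks of the gene, were about as dense on both sides of that start. After it, 107 numbers lay in 226 kb (473.9 per Mb), of which 10 were kept. Before it, from there to the peak nearest the gene start, 81 numbers lay in 171 kb (473.5 per Mb), of which 2 were kept. Out to the nearest kept peak beyond the gene start, 1579 kb, 251 numbers lay (159 per Mb). Of that span 1199 kb lay outside the gene, so this density is not that of the gene. Intron 7, of 8.74 kb, held a cluster of 3 peaks of 621 to 2035 bases (93762211 to 93766560).

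Of 266 protein-coding genes above 300 kb with at least 5 sense peaks, 12.8% had no peak in the first 33.3% of their length, among them Magi1, whose first peak lay 34.3% into the gene, and Magi2, at 37.2%. This limit was set after the positions were seen.

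Magi3 (ENSMUSG00000052539.15, chromosome 3, 104013259 to 104220374, minus strand), the shortest of the 3 scaffolds, held 5 sense peaks at 24.1 per Mb, rank 646 of 1925 genes from 100 to 300 kb. In its first intron (114 kb) lay 1 of them, 42.8 kb from the start, which at 2830 bases was the widest peak of the whole set. Introns 12 and 13, of 3.55 and 4.48 kb, held 3, and the last exon held 1. The densities of the scaffolds thus lay between 24.1 per Mb in Magi3 and 29.1 in Magi2. That order rested on narrow peaks: with peaks of 596 bases or more, the median of the list, they were 24.1 in Magi3, 16.4 in Magi1 and 8.12 in Magi2.

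Ctnnd2 (ENSMUSG00000022240.10, chromosome 15, 30172593 to 31029341, plus strand) encodes delta-catenin, a catenin best known from neurons. With 48 sense peaks it had the highest density of the set, 56.0 per Mb, and ranked 46 of 567 genes above 300 kb. Its peaks spread over the gene, from 0.784% to 99.8% of its length, and fell in 14 of 22 introns and in the last exon. The 3 longest introns, of 159, 149 and 138 kb, held 8, 5 and 8 peaks, or 44.7% of the peaks in introns on 52.4% of the intron length. Intron 14, of 18.4 kb, held 4. Its widest gap without a peak spanned 136 kb (30250988 to 30386667) and held 26 numbers that were not kept. The next widest spanned 81.9 kb (30568505 to 30650421) and held 7. Around its own internal coding start, 285 kb into the gene, the densities were 42.1 per Mb before and 63.0 per Mb after. Only 1 of the 48 peaks was exonic.

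Ctnnd1 (ENSMUSG00000034101.14, chromosome 2, 84600071 to 84650765, minus strand), the paralog that binds cadherins in most tissues, held no sense peak. Calls were nevertheless dense around it. The nearest kept peaks of its strand lay 21.1 kb and 15.0 kb outside the gene, and 33 numbers lay between them in 86.8 kb (380 per Mb), none of them kept. In 94.8% of 5146 genes from 30 to 100 kb with a kept peak on each side, that measure was lower.

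The 3 alpha-catenin genes differed in both peaks and calls. Ctnna1 (ENSMUSG00000037815.7, chromosome 18, 35118859 to 35254779, plus strand), the form of epithelia and most other tissues, held no sense peak. At most 71 numbers lay in its 136 kb and the 28.8 kb of flank up to the nearest kept peaks (431 per Mb), and none was kept. Of 1908 genes from 100 to 300 kb, 96.2% had fewer per Mb. Ctnna3 (ENSMUSG00000060843.11, chromosome 10, 63430098 to 65003667, plus strand), a form of heart muscle and testis, also held none. Only 17 numbers lay in the 3643 kb between the kept peaks on either side of it (4.67 per Mb), and 6.07% of 560 genes above 300 kb had fewer. Absence of a peak thus went with a span of dense calls around Ctnna1 and of very few around Ctnna3. Each span reaches beyond the gene, so the counts are upper limits for the gene, and the densities are those of the span, not of the gene.

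Ctnna2 (ENSMUSG00000063063.12, chromosome 6, 76881637 to 77979699, minus strand), the alpha-catenin of neurons, held 7 sense peaks, 6.38 per Mb, rank 293 of 567. All 7 were intronic and all lay in the first 41.2% of the gene, and 3 were in intron 1 (64.9 kb). One peak began close to the gene start, at 77977998 to 77979261, and was the widest at 1264 bases, while the others had 130 to 587. The rest of the gene, with its longest intron of 461 kb reaching beyond the last peak, held none. From the last peak to the next kept peak beyond the gene end, 2822 kb, 6 numbers lay (2.13 per Mb), against 37 in the 3477 kb from that peak to the kept peak before the gene start (10.6 per Mb). Of these spans 2176 kb and 3025 kb lay outside the gene, so the densities are not those of the gene. The 37 numbers also include 6 kept peaks of Ctnna2. Every peak lay before the midpoint of the gene in 7.14% of the 266 long genes with at least 5 peaks, a comparison chosen after these positions were seen.

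**Figure D3:**
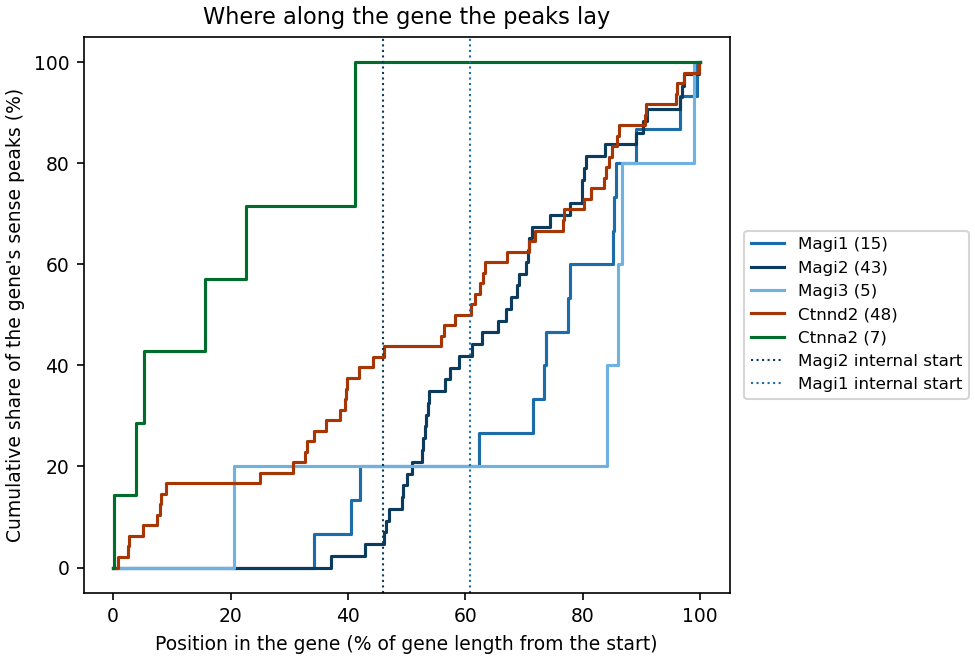
Cumulative share of each gene's sense peaks (vertical axis, %) against position in the gene (horizontal axis, % of gene length from its start) for the 5 genes with peaks, with dotted lines at the outermost internal coding starts of Magi2 and Magi1. Ctnna2 reaches 100% at 41.2% of its length, Magi2 rises from its internal start on, and Ctnnd2 rises along the whole gene.

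Ctnnb1 (ENSMUSG00000006932.17, chromosome 9, 120929216 to 120960507, plus strand), the shortest gene of the set, held no sense peak. Between the kept peaks on either side, 282 kb apart, lay 17 numbers (60.2 per Mb), fewer than the median of 92.8 per Mb for genes from 30 to 100 kb. Of that span 246 kb lay before the gene, which itself covers 31.3 kb. The density is thus that of the span, and it does not show whether calls were sparse in Ctnnb1. The synapse genes Lrrtm1, Lrrtm2 and Lrrtm3, which lie inside alpha-catenin genes on the opposite strand, held no sense peak either.

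A feature shared by 4 of the 5 genes with peaks was a peak in the last exon. Magi1 (93678075 to 93678988, 914 bases), Magi2 (20702168 to 20703401, 1234 bases), Magi3 (104014624 to 104015955, 1332 bases) and Ctnnd2 (31027368 to 31028307, 940 bases) each held 1, wholly exonic. Of the 992 protein-coding genes with at least 5 sense peaks, 13.9% held a peak in the last exon of the longest coding transcript. Ctnna2 was without one. The Magi2 peak also lay in Gm29254, an annotated non-coding transcript of the same strand. The peaks of Magi1 and Magi3 overlapped a peak of the opposite strand, that of Magi3 lying in Phtf1, a gene of the other strand that overlaps the end of Magi3. This comparison was chosen after the positions were seen.

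Over the 5 genes, 9 of 118 peaks were exonic (7.63%, 95% Wilson interval 4.06 to 13.9) on 1.22% of the length of the 9 genes. Magi2 held 6 of the 9, and without it 3 of 75 peaks were exonic (4.0%). In protein-coding genes above 300 kb the share was 3.69%, and in all protein-coding genes 14.7%. The interval treats peaks as independent and covers counting error only. No intronic peak touched an exon, 8 of 109 lay within 1 kb of one, and 61 lay more than 10 kb away (56.0%). Before the midpoint of the gene lay 39 of 118 peaks (33.1%), and 49.6% in protein-coding genes above 300 kb. The genes went different ways, with 7 of 43 in Magi2, 3 of 15 in Magi1, 1 of 5 in Magi3, 21 of 48 in Ctnnd2 and 7 of 7 in Ctnna2. Without Magi2 the share was 42.7% (32 of 75).

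Peak width separated the genes in another way than peak number. The median width was 353 bases in Magi2, 393 in Ctnna2 and 478 in Ctnnd2, below the 596 of the whole list, and 828 in Magi1 and 1076 in Magi3. Widths overlapped widely, from 101 to 1704 bases in Magi2 and from 267 to 2035 in Magi1. By gene median, Magi2 lay at percentile 10.9 and Magi3 at percentile 89.4 of the 992 genes with at least 5 peaks. All 5 peaks of Magi3 and 10 of 15 of Magi1 were at least as wide as the median of the list, against 12 of 43 in Magi2, 22 of 48 in Ctnnd2 and 1 of 7 in Ctnna2.

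**Figure D4:**
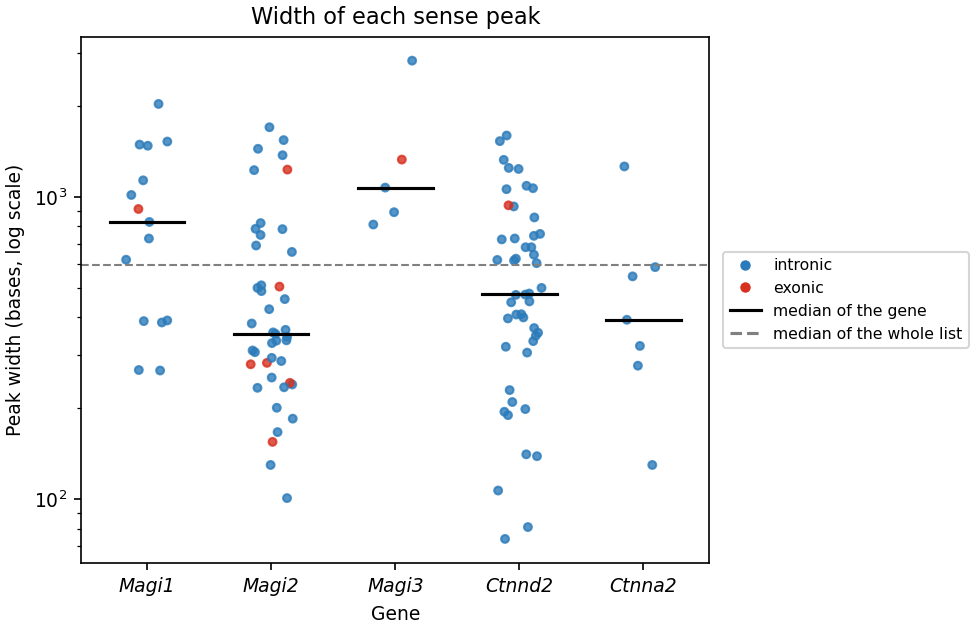
Width of every sense peak in bases (vertical axis, logarithmic) for the 5 genes with peaks, blue for intronic and red for exonic peaks. Black bars are the gene medians (828, 353, 1076, 478 and 393 from left to right) and the dashed line is the median of the whole list (596); points are spread sideways for legibility only.

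The same genes differed in how many numbered calls were kept. Between the first and last peak of the gene, 15 of 191 numbers were kept in Magi1 (7.85%) and 5 of 63 in Magi3 (7.94%). In Magi2 43 of 156 were kept (27.6%), in Ctnnd2 48 of 198 (24.2%) and in Ctnna2 7 of 27 (25.9%). Among the 992 genes the median was 21.02% (quartiles 13.6 and 32.0), and Magi1 and Magi3 stood at percentiles 5.34 and 5.54. Ctnnd2 thus had more peaks than Magi1 at a similar number of calls between the outermost peaks. Those peaks lay 34.3% and 99.5% into Magi1 but 0.784% and 99.8% into Ctnnd2, so the stretches differ. Between the nearest kept peaks outside the gene, 363 numbers lay for Magi1 (200 per Mb) and 244 for Ctnnd2 (65.9 per Mb). First and last numbers are kept by definition, which raises these shares most in genes with few peaks.

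**Figure D5:**
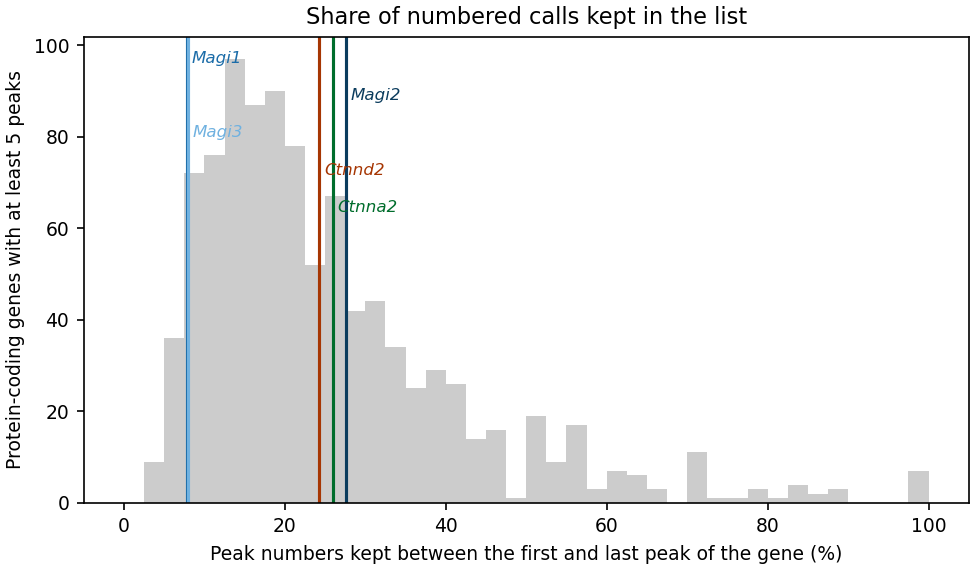
Histogram of the share of peak numbers kept between the first and last peak (horizontal axis, %) over 992 protein-coding genes with at least 5 sense peaks (vertical axis, genes). Lines mark the 5 junction genes: Magi1 and Magi3 lie near 8% in the low tail, and Ctnnd2, Ctnna2 and Magi2 between 24.2% and 27.6%.

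On the opposite strand the 9 genes held 7 peaks: 4 in Magi3, all within Phtf1, and 1 each in Magi1, Ctnnd2 and Ctnna3, where no gene of that strand is annotated. Of the 118 sense peaks 3 overlapped a peak of the opposite strand (2.54%), against 6.66% of all peaks. That of Ctnnd2 lay in intron 1 at 30249660 to 30250988. Ctnna3 thus had a peak (64912392 to 64912593, 202 bases) only against its own direction of transcription.

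Other junction genes, with relatives and partners of the catenins, were read from 6 lists with 84 genes, of which 44 held a sense peak (52.4%). By length class, 0 of 9 held one below 10 kb (all protein-coding genes 6.05%), 3 of 16 from 10 to 30 kb (21.3%), 18 of 31 from 30 to 100 kb (42.4%), 18 of 23 from 100 to 300 kb (68.1%) and 5 of 5 above 300 kb (68.6%). Pooled density was 17.8 per Mb in these 84 genes, 19.5 in the 9 Magi and catenin genes and 18.3 in all protein-coding genes, and the median gene had 5.69, 6.38 and 0 per Mb. Their 179 peaks included 18 exonic ones, and 3 of the 84 had a peak in the last exon.

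Cadherins, nectins and afadin had 5 of 8 genes with a peak. Cdh2, which encodes N-cadherin, led with 16 peaks (72.6 per Mb), Cdh3, Nectin1, Nectin3 and Nectin4 held 1 each, and Cdh1, which encodes E-cadherin, held none. Armadillo proteins, desmosome proteins and the catenin-like genes Ctnnbl1 and Ctnnal1 had 5 of 11. Pkp4 and Dsg2 held 6 each, Ctnnbl1 4, and Pkp2 and Ctnnal1 1 each. Pkp4 and Ctnnbl1 are relatives of the catenins by their armadillo repeats. Actin linkers had 8 of 9, among them vinculin (Vcl, 6), Sorbs2 (3), and Lima1 and Actn1 (2 each).

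Tight junction proteins had 8 of 15, with 10 peaks in Tjp1, which encodes the scaffold ZO-1, 6 in Jam2, and 2 each in Jam3 and Cgnl1. Polarity complexes and other membrane-associated guanylate kinases had 9 of 24, led by Patj (18), Mpp7 (11), and Pard3 and Pard3b (6 each). Patj, at 324 kb, and Mpp7, at 279 kb, had 55.6 and 39.4 peaks per Mb, above all 3 Magi genes. Pard3, at 548 kb, and Pard3b, at 1003 kb, had 10.9 and 5.98 peaks per Mb, below all 3. Among partners of beta-catenin 9 of 17 held a peak: Tcf7l1, the repressor of Wnt targets in these cells, 12, Bcl9 7, the destruction complex scaffold Apc 5, and Btrc, Lef1 and Tcf7l2 3 each. Beta-catenin itself had none, as given above.

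By gene length and number of peaks, the protein-coding genes most like Magi2 were Dab1 (45 peaks in 1125 kb), Auts2 (32 in 1106 kb) and Wwox (45 in 913 kb), at distances of 0.398, 0.597 and 0.698 log2 units. Their shares of kept numbers were 25.6%, 6.65% and 12.0%, against 27.6% in Magi2. They held 3, 3 and 1 exonic peaks, against 6. Most like Ctnnd2 were Wwox, at 0.131, and Gm37388 and Gm37013, which overlap on chromosome 18 and held 38 peaks each.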

How the data were processed

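RNA recovered with SAFB1, IgG or FLAG antibodies was sequenced after removal of ribosomal RNA, per the labels' protocols. The submitters' processing notes name mm10, STAR, Subread and featureCounts; the method of peak calling and any pooling is not given in the sources used here. One list was deposited, deposited, of 30998 peaks (median width 596 bases, range 74 to 5062) with positions, names, strands and a score. In the authors' file every score equals 500, so it carried no information. Starts were taken as counted from 0. Genes and exons of all transcripts came from GENCODE M21 (GRCm38, the assembly of mm10), and each peak was placed by its midpoint. Distances and densities were computed with pandas 2.3.3 and intervals with scipy 1.17.1. Peak placement was tested on simulated data. The genes and lists were chosen with earlier results of these data known. Named genes are the 9 members, the 4 genes of each list with most peaks (with ties), genes nested in alpha-catenin introns, the 3 genes closest to Magi2 and Ctnnd2, and genes that share a peak with a member; some genes of the lists are not reported here by name. Phtf1, named for opposite-strand peaks, was chosen after values were seen. Igsf5 has a pair of identifiers, and the lower was used. The comparisons at internal starts and last exons, and that of numbered calls, were chosen after seeing the data. Fits with tests per library were not possible. Alternatives were other overlap rules, wide peaks only, unshared peaks, merged peaks, other gene bodies and coding exons only.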

Additional observations from a re-analysis of the deposited data

How the results depend on the processing

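Under 7 other settings, 96 of 103 recomputed values stayed within 1.5 times the reported count or within the interval of the reported share. Part of these could not change, since a gene without a peak cannot gain one when peaks are only removed. Counting any overlap gave the reported values again. The 7 values that moved all came from keeping peaks of 596 bases or more, the median width of the list. That setting left 50 sense peaks in the 9 genes (8.28 per Mb), 42% of them before the gene's midpoint, and 100% of Magi2 peaks after its internal start (reported as 95.3%, interval 84.5 to 98.7). It left 12 peaks in Magi2, 22 in Ctnnd2 and 1 in Ctnna2. The 5 genes with a peak and the 4 with a peak in the last exon were as many. Merging peaks less than 1 kb apart gave 105 peaks, and without the peak that Magi2 shares with Gm29254 there were 117, with 3 genes that had a peak in the last exon. The settings for the internal start and the last exon were chosen after seeing the data. No paired analysis was possible because the list holds no value per library, and no library could be left out. Depth is unknown, so a gene without a peak may lie below what the libraries could detect.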
